A study of Mus musculus with 6 samples.

Results

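Antimicrobial proteins that epithelia secrete were followed in the corneal epithelium of mice lacking Rela, which encodes p65, a subunit of the NF-κB family of transcription factors. The group was chosen by name and held 10 genes: the beta-defensins Defb1, Defb3, Defb4, Defb6 and Defb14, the lipocalin Lcn2, the protease inhibitor Slpi, the lactoferrin gene Ltf, the cathelicidin gene Camp and the peptidoglycan recognition protein gene Pglyrp1. Of these, 9 had a row among the 17866 genes of the deposited expression table, and Camp was not analysed here. RNA was measured by bulk sequencing of 6 libraries of corneal epithelium, all from C57BL/6 mice aged 6 months. Their labels gave 3 libraries as WT and 3 as Rela-/-, called KO here. According to the study's methods the KO animals were Krt14-Cre; Rela f/f, so that the deletion was restricted to cells in which the Krt14 promoter drives Cre, a promoter of basal epithelial cells. The methods describe the 3 samples of a genotype as independent biological samples, and p-values below measure the spread between these libraries.

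Beta-defensins are small cationic peptides that disrupt microbial membranes and also attract immune cells, and their fold is held by disulphide bonds between conserved cysteines. Lipocalin 2 and lactoferrin withhold iron from microbes, peptidoglycan recognition proteins bind bacterial cell walls, and SLPI is both antimicrobial and an inhibitor of neutrophil elastase. At the ocular surface some of these proteins are made constantly, whereas others are known to be induced by microbial products, injury or cytokines such as IL-17, in part through NF-κB.

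Library totals lay between 20158404 and 20880347 estimated counts, so that 3 counts corresponded to between 0.137 and 0.152 counts per 1000000 (CPM). Rela itself, the check on the labels, had 1871, 1844 and 1855 counts per WT library and 318, 223 and 313 per KO library, with all KO libraries below all WT libraries (edgeR log2 fold change −2.60, adjusted p = 2.74e-06). The tissue label was checked against marker genes. The 6 cornea markers, such as Krt12 and Pax6, summed to between 68055 and 68880 CPM in WT. In KO they summed to between 11587 and 14327 CPM. The 5 epidermis markers rose from a sum of at most 20.1 CPM in WT to at least 10145 CPM in KO. Of these, Krt1, Krt10, Lor and Flg rose, whereas Krt2 had 0 counts in every WT library and 3, 1 and 2 in KO. The 7 conjunctiva markers, including Krt4 and Krt13, summed to between 1933 and 2960 CPM in WT and between 52367 and 66995 CPM in KO. Krt13 and Krt4, with KO means of 38248 and 21745 CPM, made up most of the KO sum. Krt19, Krt7 and Agr2 rose 1.73-fold, 2.19-fold and 3.77-fold by edgeR. Spdef and Muc5ac rose from WT means of 0.25 and 0 CPM. The sums of these lists moved with the genotype in every library, and the part of these markers in each change below was not tested. In bulk RNA, more cells of a type and more RNA per cell cannot be told apart.

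The 9 measured genes fell into a set that was close to absent in WT and detected in every KO library (Defb4, Slpi, Defb3 and Defb14, abundant in KO, and Defb6, at a low level there), a gene that rose 2.95-fold (Ltf), and 3 genes present in both genotypes that did not pass the test (Defb1, Lcn2 and Pglyrp1). By edgeR's quasi-likelihood test at an adjusted p of 0.05, 6 of the 9 were higher in KO and 0 were lower. Of the 13305 genes tested, 31.8% were called higher and 30.2% lower, so a call alone was common in this comparison. At the threshold stated in the study's methods, an adjusted p of 0.001 or less and a fold change of at least 2, 5 of the 9 were higher, against 11.6% of all genes tested. In 6 of the 9 every KO library lay above every WT library, against 34.7% of all genes tested. Defb3, Defb4, Defb6 and Defb14 exceeded the filter on low counts in KO libraries only, so they had to come out as higher once tested, and these counts do not stand as support for the group. The median log2 fold change of all genes tested was 0.01.

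**Figure D1:**
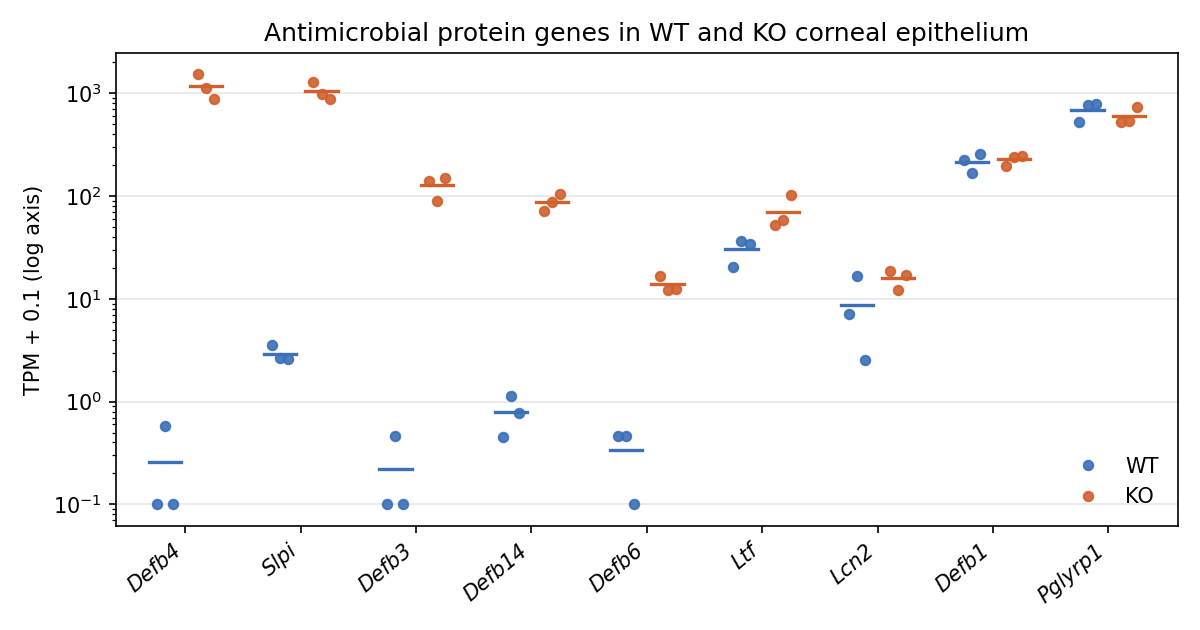
Transcripts per 1000000 (TPM) plus 0.1, on a log axis, of the 9 measured genes in each library; blue points are WT, orange points KO, and the short lines are means of 3 libraries. Defb4, Slpi, Defb3, Defb14 and Defb6 have WT points at or below 3.45 TPM and KO points from 12.2 TPM upward, whereas the points of Lcn2, Defb1 and Pglyrp1 overlap.

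Summed over the 9 genes, the level was 779, 993 and 1078 TPM in the WT libraries and 3835, 3148 and 3133 TPM in the KO libraries. TPM is scaled for transcript length, so it allows genes to be compared with each other. The make-up of this sum differed between the genotypes. Pglyrp1 alone made up between 67.4% and 77.5% of it in WT, whereas Defb3, Defb4, Defb6, Defb14 and Slpi together made up between 0.291% and 0.534% in WT and between 65.1% and 79.3% in KO. These 5 were grouped because they were near absent in WT and higher in KO. The direction of their shares followed from that choice, and the shares are a description. In the order of mean TPM, WT ran from Pglyrp1 (692 ± 145, SD, n = 3) through Defb1 (215 ± 45.6) and Ltf (30.3 ± 8.56) to Lcn2 (8.66 ± 7.23), each without overlap with the next gene. Lcn2 and Slpi (2.82 ± 0.54) overlapped in WT, as did the last 4 genes, Defb14, Defb6, Defb4 and Defb3, with one another. KO ran from Defb4 (1176 ± 323) and Slpi (1057 ± 208), which overlapped, to Pglyrp1 (596 ± 115) and Defb1 (228 ± 27.6), which did not. Below them in KO, Defb3 (127 ± 32.0) overlapped with Defb14 (87.3 ± 16.8), which overlapped with Ltf (70.6 ± 26.9). Lcn2 (15.9 ± 3.35) and Defb6 (13.7 ± 2.59) were last in KO and overlapped. Among all 17866 genes ranked by mean TPM, Defb4 moved from rank 13614 in WT to rank 133 in KO and Slpi from 10539 to 153, while Pglyrp1 ranked 191 and 230.

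The coding sequences of the 5 measured beta-defensins are shown because their family relation, the cysteine codons that shape the peptide, and the stretches that reads could share all bear on the counts. They were taken from GENCODE M21 on GRCm38, run 5′ to 3′ and end with the stop codon, and codons for cysteine are in capitals.
Defb4: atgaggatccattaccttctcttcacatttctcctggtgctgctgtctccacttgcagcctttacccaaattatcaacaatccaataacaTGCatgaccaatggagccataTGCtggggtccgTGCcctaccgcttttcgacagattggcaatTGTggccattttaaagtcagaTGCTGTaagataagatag
Defb6: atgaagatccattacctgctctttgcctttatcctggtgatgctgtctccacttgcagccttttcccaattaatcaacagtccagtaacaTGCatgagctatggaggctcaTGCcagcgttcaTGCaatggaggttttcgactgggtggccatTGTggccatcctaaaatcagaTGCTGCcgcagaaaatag
Defb3: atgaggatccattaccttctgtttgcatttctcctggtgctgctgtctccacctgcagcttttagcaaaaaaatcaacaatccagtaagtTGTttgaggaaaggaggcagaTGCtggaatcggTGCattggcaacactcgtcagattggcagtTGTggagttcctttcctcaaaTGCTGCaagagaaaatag
Defb14: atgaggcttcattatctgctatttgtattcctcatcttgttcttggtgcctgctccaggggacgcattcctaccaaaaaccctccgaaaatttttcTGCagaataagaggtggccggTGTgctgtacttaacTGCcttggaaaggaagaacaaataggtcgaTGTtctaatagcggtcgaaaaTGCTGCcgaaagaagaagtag
Defb1: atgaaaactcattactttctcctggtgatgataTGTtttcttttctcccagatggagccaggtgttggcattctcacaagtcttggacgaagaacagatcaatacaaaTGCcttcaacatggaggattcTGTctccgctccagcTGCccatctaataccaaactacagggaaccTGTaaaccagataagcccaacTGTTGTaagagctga
Defb3, Defb4 and Defb6 each encode 63 residues with 6 cysteine codons, Defb14 encodes 67 residues with 6, and Defb1 encodes 69 residues with 7. On global alignment Defb4 and Defb6 were identical at 78.6% of aligned positions, Defb3 and Defb4 at 76.0%, and Defb3 and Defb6 at 71.9%. Defb14 shared between 53.5% and 57.8% of positions with these 3 genes, and Defb1 shared between 48.1% and 51.1% with the other 4. The reads were 50 bases long, and 50-base windows were compared among annotated protein-coding transcripts only. Of these windows, 23 of 405 in Defb4 (5.68%) also occurred in a transcript of another gene, in each case Defb8, while none of those in Defb1, Defb3, Defb6 and Defb14 did. Other types of transcript were not searched. None of the windows of these 5 genes occurred in another of the 5.

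Defb4, whose product is regarded as a counterpart of the inducible human beta-defensin 2, had the highest mean level in KO among the 9 genes. It lies at chr8:19198704-19201547 on the plus strand (gene 56519, 2 exons). It had 0, 2 and 0 counts per WT library and 7369, 5426 and 4422 per KO library, the deposited KO values not being whole numbers, as RSEM gives where reads map to more than 1 gene. All WT counts came from replicate 2, and every KO library lay far above them. The ratio of summed counts, scaled by library size, was 9286. Its exact 95% interval, from 2570 to 76680, covers counting error only, as do all such intervals here. edgeR gave an adjusted p of 3.64e-07. Without WT replicate 2 every remaining WT library was at 0. Over the whole table, 289 tested genes had 3 or fewer counts in every WT library, 13 of them had a mean of at least 100 TPM in KO, and Defb4 ranked 2 of those by KO level.

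Defb3, at chr8:19293361-19295339 on the plus strand (gene 27358), had 0, 1 and 0 counts per WT library and 462, 296 and 506 per KO library. Its single WT count was again in replicate 2. The scaled ratio of summed counts was 1363 (interval 244 to 53891, edgeR adjusted p = 1.78e-06).

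Defb14, the counterpart of human beta-defensin 3, had 1, 4 and 2 counts per WT library and 257, 302 and 375 per KO library. WT replicate 2 was the highest of the WT libraries and all 3 were far below KO. The edgeR log2 fold change was 7.09 (SE 0.32, 136-fold, adjusted p = 1.4e-06), and 7.69 without WT replicate 2. The table placed the gene (244332) at chr8:19163156-19195309 on the plus strand, a span of 32154 bases, whereas GENCODE places its 2 exons at chr8:19194357-19195212. The longer span also holds Gm39139, a long noncoding RNA gene on the opposite strand, and whether counting used strand is not stated in the sources used here.

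Defb6, at chr8:19225478-19228209 on the plus strand (gene 116746), stayed the least abundant of the 4 in KO. Its counts were 1, 1 and 0 in WT and 55, 40 and 42 in KO. The scaled ratio of summed counts was 73.9 (interval 20.1 to 616, edgeR adjusted p = 2.86e-05). The groups did not overlap, but the KO level of 13.7 TPM was far below the 1176 TPM of Defb4, its closest relative by sequence among the 5.

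The 4 beta-defensin genes that were near 0 in WT and detected in every KO library lie in a single stretch of chromosome 8. Measured from the GENCODE start of Defb14, Defb4 starts at 4.35 kb, Defb6 at 31.1 kb and Defb3 at 99.0 kb. Within that stretch Defb5, at 53.2 kb, had 0 counts in all WT libraries and 1, 1 and 0 in KO. Beyond it Defb8, at 251 kb, had 0 counts in WT and 0.4, 2.6 and 1.6 in KO, although it shares sequence with Defb4. Defb12 and Defb34, which start up to 0.082 Mb before Defb14, had at most 3 counts in any library. All 8 other beta-defensin genes with a row, these 4 included, had 3 or fewer counts in every library and none was tested, so that they were not detectable at this depth. Defb46, at 45.6 kb, lies within the stretch as well but had no row. Defb1 lies 2582 kb away from Defb14, and its levels are given next.

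**Figure D2:**
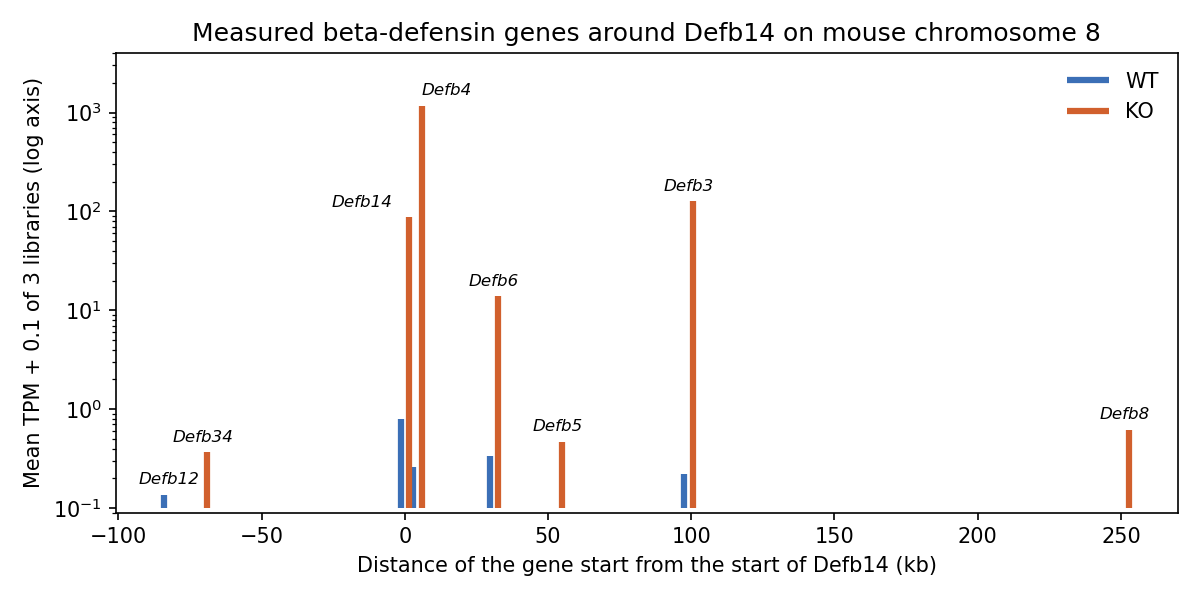
Mean level (TPM plus 0.1, log axis, 3 libraries per genotype) of the measured beta-defensin genes near Defb14 against the distance of the gene start from that of Defb14 in kb; blue bars are WT and orange bars KO. Tall KO bars stand at Defb14, Defb4, Defb6 and Defb3, whereas Defb5 between them and Defb12, Defb34 and Defb8 beside them stay below 1 TPM.

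Defb1, a beta-defensin known for constant expression in many epithelia, was the only beta-defensin with more than 4 counts in any WT library. It lies at chr8:21776555-21795185 on the plus strand (gene 13214). It had 1887, 1434 and 2285 counts per WT library and 1978, 2437 and 2566 per KO library. WT replicate 3 lay above KO replicate 1, so the groups overlapped. The edgeR log2 fold change was 0.42 (2-SE interval 0.07 to 0.77, adjusted p = 0.0626), which did not pass. The call turned with the settings. It was higher in KO by DESeq2 (adjusted p = 0.0431), without WT replicate 3 (0.62, edgeR adjusted p = 0.0125) and without KO replicate 1 (0.52, edgeR adjusted p = 0.0438). With a correction for gene length it was lower in KO (−0.47, edgeR adjusted p = 0.033).

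Slpi, the secretory leukocyte protease inhibitor, had the second highest mean level in KO. It lies at chr2:164354070-164356507 on the minus strand (gene 20568), and 1 of its exons overlaps the microRNA gene Mir7678 on the same strand. It had 28, 21 and 21 counts per WT library and 12419, 9580 and 8849 per KO library. The WT libraries were low and close together, with no overlap with the KO libraries. The edgeR log2 fold change was 8.89 (SE 0.22, 473-fold, adjusted p = 1.14e-07), and Slpi passed the filter on low counts in WT as well as in KO.

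Slpi belongs to the whey acidic protein (WAP) family, and other WAP genes moved as well. Wfdc5 had 84, 157 and 79 counts per WT library and 3126, 3011 and 3378 per KO library (32.0-fold by edgeR, adjusted p = 1.78e-06). Wfdc12 had 0, 1 and 0 counts per WT library and 732, 1143 and 553 per KO library, the WT count lying in replicate 2. The scaled ratio of summed counts was 2619 (interval 470 to 103480). Wfdc2, in contrast, had 1112, 1647 and 1222 counts per WT library and 1012, 1048 and 1355 per KO library, which overlapped and did not pass (−0.11, edgeR adjusted p = 0.581). Wfdc2 was the single member of the list of other antimicrobial genes that was tested and not called. Of the 25 genes of that list 23 had a row and 14 were tested. Of these 13 were higher in KO and 0 lower, against 31.8% and 30.2% of all genes tested, though 5 had passed the filter through KO libraries only and so had to come out higher, and the median log2 fold change was 4.25 against 0.01 over all genes tested. Under the gene length correction 11 were higher and 1 lower, and by limma on TPM 13 were higher and 1 lower.

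**Figure D3:**
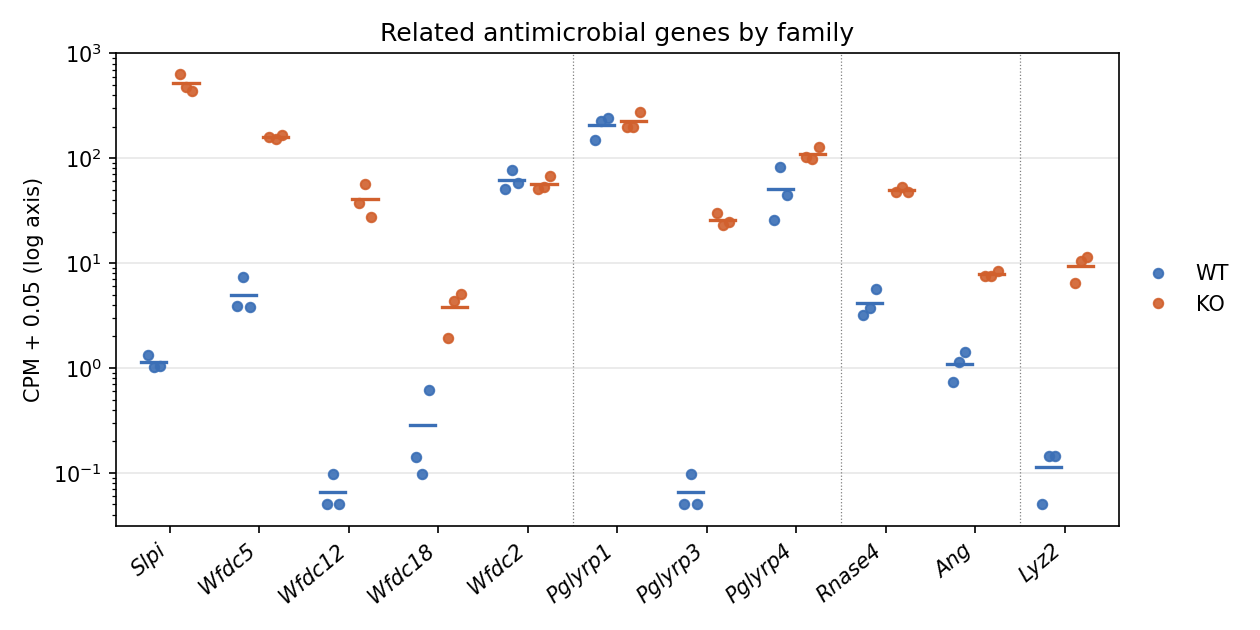
CPM plus 0.05, on a log axis, of antimicrobial genes of the WAP family, the peptidoglycan recognition proteins, the ribonucleases and Lyz2, separated by dotted lines; blue points are WT libraries, orange points KO libraries, and lines are means of 3. In the first 2 families a gene with overlapping groups (Wfdc2, Pglyrp1) stands beside relatives whose KO points lie above all WT points (Slpi, Wfdc5, Pglyrp3).

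Pglyrp1 was the most abundant of the 9 genes in WT. It lies at chr7:18884690-18890438 on the plus strand (gene 21946). It had 3273, 4870 and 5110 counts per WT library and 3889, 3956 and 5569 per KO library. WT replicate 1 was the lowest and KO replicate 3 the highest library, and the groups overlapped. The edgeR log2 fold change was 0.12 (2-SE interval −0.28 to 0.53, adjusted p = 0.623), which did not pass. With the length correction, however, it was lower in KO (−1.03, edgeR adjusted p = 6.07e-04).

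The other peptidoglycan recognition proteins did not share this pattern. Pglyrp3, an epidermal and mucosal member, had 0, 1 and 0 counts per WT library and 586, 457 and 499 per KO library. The scaled ratio of its summed counts was 1663 (interval 298 to 65735, edgeR adjusted p = 3.8e-07). Its WT count was also in replicate 2. Pglyrp4 had 558, 1767 and 936 counts per WT library and 2014, 1967 and 2559 per KO library. Its groups did not overlap in CPM, though WT replicate 2 came close to KO replicate 2. In TPM they did overlap, with WT replicate 2 at 83.4 and KO replicates 1 and 2 at 81.4 and 79.7. The log2 fold change was 1.11 (SE 0.35, edgeR adjusted p = 0.0236). The call on Pglyrp4 was lost without WT replicate 3 (1.04, edgeR adjusted p = 0.0715), without KO replicate 3 (0.98, edgeR adjusted p = 0.0674) and with the length correction (0.84, edgeR adjusted p = 0.0542). Pglyrp2 had at most 2 counts in any library and was not tested.

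Most of these genes are short, and a length correction was run for that reason. Effective lengths were between 291 and 430 bases for Defb3, Defb4, Defb6 and Defb14, between 657 and 896 bases for Pglyrp1, Lcn2, Slpi and Defb1, and 2757 bases for Ltf, against a median of 2783 bases over the genes tested. With counts adjusted for a smooth trend with length in each library, the calls over all genes shifted from 4231 higher and 4022 lower to 2864 higher and 5969 lower, and the median log2 fold change to −0.27. Every one of the 9 genes had a smaller log2 fold change under this correction. Defb4 still stood at 11.55, Slpi at 7.97, Defb3 at 8.37, Defb14 at 5.36, Defb6 at 4.29 and Ltf was again called higher, so the 6 calls held while Defb1 and Pglyrp1 were called lower. Defb3, Defb4, Defb6 and Defb14 had exceeded the filter on low counts in KO libraries only, so they had to come out as higher here too. Slpi and Ltf had passed it in both genotypes.

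**Figure D4:**
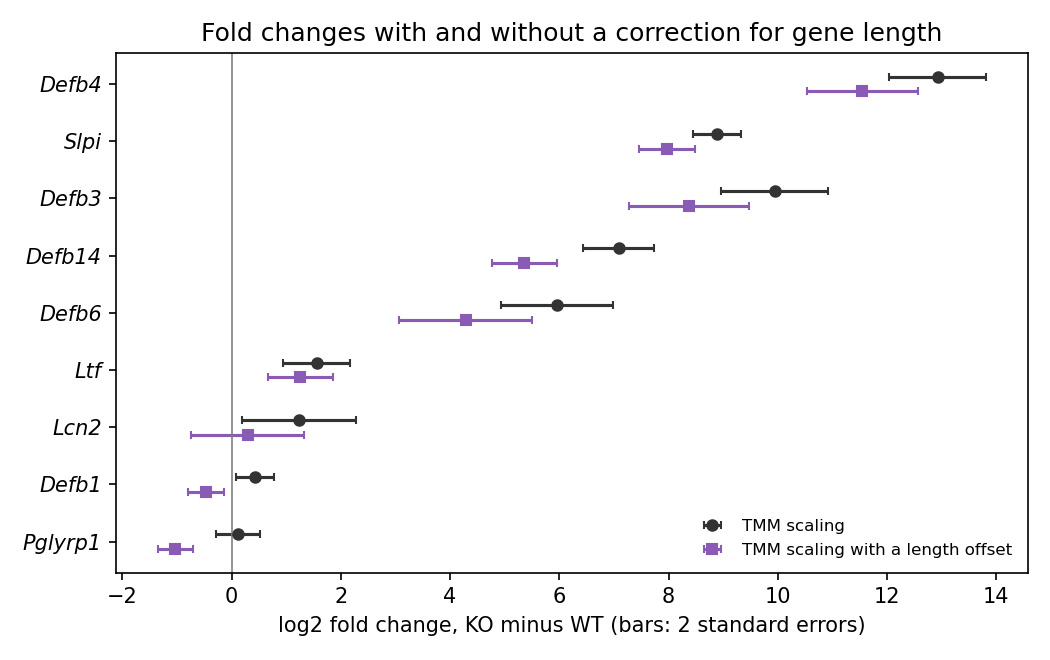
Log2 fold change of KO over WT for the 9 measured genes with bars of 2 standard errors; black circles are the TMM-scaled fit and purple squares the same fit with a gene length offset. The 6 genes at the top stay right of 0 in both fits, Lcn2 moves to 0.30, and Defb1 and Pglyrp1 move to the left of 0.

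Ltf encodes lactoferrin, an iron-binding protein of tears and of neutrophil granules. It lies at chr9:111019292-111042766 on the plus strand (gene 17002). It had 536, 969 and 929 counts per WT library and 1626, 1801 and 3256 per KO library. WT replicate 1 was the lowest and KO replicate 3 the highest, and every KO library lay above every WT library. The edgeR log2 fold change was 1.56 (SE 0.31, 2.95-fold, adjusted p = 0.00232), and the call held under all 16 alternatives tried.

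Lcn2 encodes lipocalin 2, which binds bacterial siderophores. It lies at chr2:32384637-32387739 on the minus strand (gene 16819). It had 55, 133 and 20 counts per WT library and 174, 114 and 165 per KO library. WT replicate 2 was 3.57 times the mean CPM of the other WT libraries and lay above KO replicate 2, so the groups overlapped. The edgeR log2 fold change was 1.23 (SE 0.52, adjusted p = 0.0696), which did not pass, whereas DESeq2 called it higher (adjusted p = 0.0289). Without WT replicate 2 the log2 fold change was 2.13 and edgeR called it higher (adjusted p = 0.00219). With the length correction it was 0.30 and not called.

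The same WT library stood apart for other antimicrobial genes, which were picked out after their values had been seen. S100a8 and S100a9, the subunits of the metal-binding protein calprotectin, were the clearest. S100a8 had 0, 160 and 1 counts per WT library and 1297, 4097 and 2024 per KO library. S100a9 had 17, 1263 and 28 counts per WT library and 2312, 8001 and 4844 per KO library. In WT replicate 2 the CPM was 314 times the mean of the other WT libraries for S100a8, 55.8 times for S100a9 and 2.35 times for Pglyrp4. All the same, in CPM each KO library was above each WT library for all 3. In TPM this held for S100a8 and S100a9 but not for Pglyrp4. edgeR gave log2 fold changes of 5.63 for S100a8 (adjusted p = 0.00213) and 3.64 for S100a9 (adjusted p = 0.0354), and without WT replicate 2 these were 12.05 and 7.91.

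**Figure D5:**
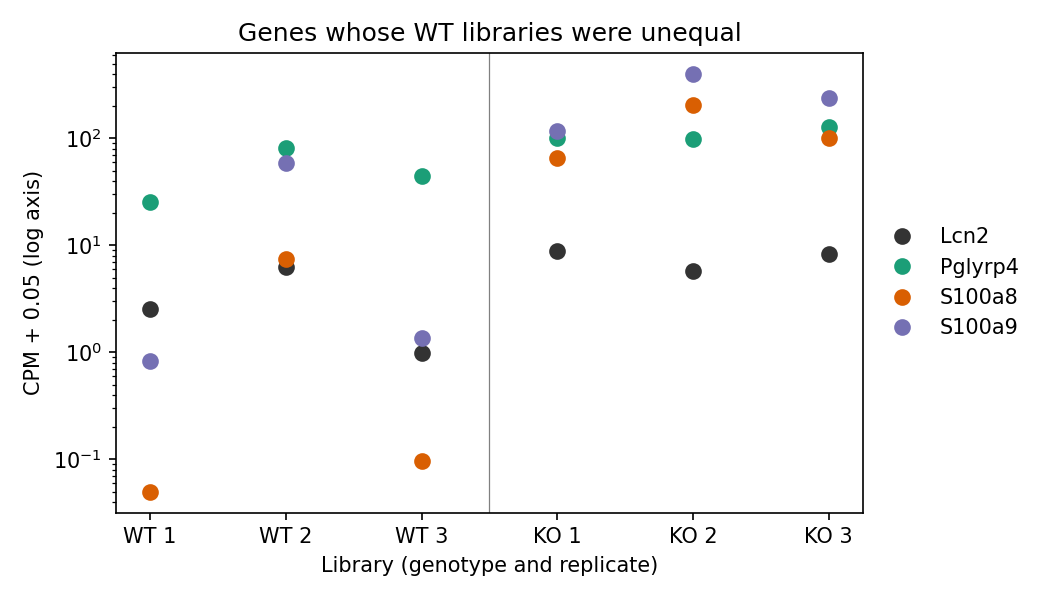
CPM plus 0.05, on a log axis, of Lcn2, Pglyrp4, S100a8 and S100a9 in each of the 6 libraries, WT to the left and KO to the right of the grey line. WT replicate 2 is the highest WT library for all 4 genes, and for Lcn2 it lies above KO replicate 2.

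Neutrophils carry Ltf, Lcn2, Camp, Pglyrp1, S100a8 and S100a9 in large amounts, so their defining markers were set beside these genes. Of the 9 neutrophil markers 8 had a row, and their CPM summed to between 6.44 and 14.3 in WT and between 8.34 and 11.7 in KO, ranges that overlapped. Of the 3 neutrophil markers tested, Cxcr2 and Csf3r were higher and Ly6g lower in KO, beside 31.8% of all genes tested called higher and 30.2% lower. The deposited counts of these 3 were not whole in any library, so the division of their reads among genes is uncertain. Without Ly6g, left out after its values were seen, the other 7 summed to between 4.18 and 4.82 CPM in WT and between 7.58 and 10.6 CPM in KO, so that every KO library lay above every WT library. Mmp8 had 0 counts in every WT library and 4, 3 and 1 in KO, and Retnlg 0 in WT and 0, 9 and 4 in KO. Elane, Prtn3 and Ngp, which encode granule proteins, had 3 or fewer counts in every library. Macrophage markers, which bear on Lyz2, summed to between 30.7 and 35.0 CPM in WT and between 59.5 and 75.1 CPM in KO. In edgeR 5 of 6 tested macrophage markers were higher, against 31.8% of all genes tested. Of the 5, Adgre1 had passed the filter on low counts through KO libraries only and so had to come out higher. None of the 8 listed was at 3 or fewer counts in every library. Cd68, which did not pass, made up most of the WT sum. Without Cd68, left out after its values were seen, the other 7 summed to between 1.77 and 3.58 CPM in WT and between 33.0 and 38.6 CPM in KO. C1qa, C1qb, C1qc and Csf1r rose between 11.7-fold and 12.7-fold by edgeR, while Adgre1 had 1, 0 and 1 counts per WT library and 31, 33 and 42 per KO library. Lyz2, the lysozyme gene of phagocytes, had 0, 2 and 2 counts per WT library and 125, 210 and 227 per KO library (edgeR log2 fold change 7.11, adjusted p = 9.5e-06). Its deposited counts were not whole in KO, like those of its near-identical neighbour Lyz1, so their division is uncertain, and the part of macrophages in the change was not tested. Stroma markers summed to between 12.6 and 16.1 CPM in WT and between 11.2 and 20.7 CPM in KO, and Pdgfra made up most of the WT sum. Of the 5 stroma markers tested, Pdgfra was lower, and Dcn, Thy1 (63.5-fold by edgeR), Col1a2 and Col1a1 (3.87-fold by edgeR) were higher. Over all genes tested the shares were 30.2% lower and 31.8% higher. Dcn, Thy1 and Col1a2 had passed the filter on low counts through KO libraries only and so had to come out higher. Without Pdgfra, left out after its values were seen, the other 6 summed to between 0.183 and 1.63 CPM in WT and between 9.83 and 19.5 CPM in KO. The part of neutrophils and stromal cells in the changes described here was not tested.

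Other antimicrobial genes of the list rose as well. Rnase4, a secreted ribonuclease, had 69, 78.5 and 117 counts per WT library and 938, 1053 and 952 per KO library (edgeR log2 fold change 3.58, adjusted p = 2.74e-06), and it overlaps Ang, so that reads of the pair were divided by estimate. S100a7a, the mouse relative of psoriasin, had 218, 331 and 358 counts per WT library and 1601, 1347 and 1799 per KO library (2.49, edgeR adjusted p = 1.99e-05). Neither showed overlap between the groups. At the other end, 8 genes of this list, among them Bpi and Reg3g, had 3 or fewer counts in every library.

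Promoters are shown for 4 of the genes because the deleted gene encodes a subunit of NF-κB, whose binding motif can be looked for directly, although other subunits that bind it were not deleted. The windows run from 250 bases before to 50 bases after the gene start, 5′ to 3′ on the gene's strand, from RefSeq on GRCm38.p6, and capitals mark matches to the κB consensus on either strand. Such windows were matched by symbol for 7 of the 10 genes, Camp included. Defb1, Defb4 and Defb14 had no window, so no motif was searched for in their promoters. Defb6 and Pglyrp1 are the genes with a match, at chr8:19225228-19225527 and chr7:18884440-18884739, and Defb3 (chr8:19293111-19293410) and Slpi (chr2:164356458-164356757, minus strand) are strongly higher genes without a match.
Defb6: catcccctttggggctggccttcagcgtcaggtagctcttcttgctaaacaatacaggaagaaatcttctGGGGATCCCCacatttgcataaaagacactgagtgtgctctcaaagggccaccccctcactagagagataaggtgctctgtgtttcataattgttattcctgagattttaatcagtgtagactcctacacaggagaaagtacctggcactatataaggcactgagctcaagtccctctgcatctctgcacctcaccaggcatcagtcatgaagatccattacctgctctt
Defb3: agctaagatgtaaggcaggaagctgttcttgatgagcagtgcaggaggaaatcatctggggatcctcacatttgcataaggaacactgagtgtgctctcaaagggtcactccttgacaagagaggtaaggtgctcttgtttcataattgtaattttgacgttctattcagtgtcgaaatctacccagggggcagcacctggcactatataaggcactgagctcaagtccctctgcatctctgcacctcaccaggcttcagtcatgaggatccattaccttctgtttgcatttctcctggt
Pglyrp1: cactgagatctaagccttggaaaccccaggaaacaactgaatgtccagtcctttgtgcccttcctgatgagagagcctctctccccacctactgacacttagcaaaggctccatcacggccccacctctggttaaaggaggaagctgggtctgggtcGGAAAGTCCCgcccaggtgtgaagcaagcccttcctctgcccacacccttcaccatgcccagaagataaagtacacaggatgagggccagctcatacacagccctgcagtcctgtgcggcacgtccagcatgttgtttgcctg
Slpi: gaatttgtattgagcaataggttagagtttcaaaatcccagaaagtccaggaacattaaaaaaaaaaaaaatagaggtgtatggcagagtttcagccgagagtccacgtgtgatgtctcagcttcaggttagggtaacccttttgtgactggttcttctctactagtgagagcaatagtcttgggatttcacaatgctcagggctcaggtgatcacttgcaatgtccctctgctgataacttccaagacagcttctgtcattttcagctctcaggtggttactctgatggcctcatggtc
The match in Defb6, GGGGATCCCC, lies 180 to 171 bases before the start, and that in Pglyrp1, GGAAAGTCCC, lies 93 to 84 bases before it. The κB consensus thus occurred in 2 of 7 windows, against 4.51% of 32851 promoter windows of the same length. Of the genes with a match, Defb6 rose from near 0 and Pglyrp1 had overlapping groups. The AP-1 motif TGANTCA occurred in 0 of 7 windows, against 7.81% of all windows. The C/EBP motif TTNNGNAA, searched on both strands like the others, occurred in 5 of 7 (Defb3, Defb6, Lcn2, Ltf and Slpi), against 40.7% of all windows. Both higher and uncalled genes were among those 5. The windows of Defb3 and Defb6 were identical at 75.6% of aligned positions, whereas the 14 other pairs among the 6 measured genes with a window shared between 45.6% and 51.5%. A match describes letters in a window and not a bound site, and sites farther from the start were not searched.

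Genes of pathways that induce antimicrobial proteins were examined next. Of 22 listed genes of IL-17, IL-22, IL-36, Toll-like receptor and vitamin D signalling, 21 were tested, 11 were higher, 7 lower and 3 did not pass, with a median log2 fold change of 0.64. The shares over all genes tested were 31.8% higher and 30.2% lower, so calls in both directions were not particular to this list. Among IL-17 receptor subunits, Il17ra had 337, 362 and 276 counts per WT library and 406, 342 and 307 per KO library and did not pass (0.23, edgeR adjusted p = 0.217). Its partner Il17rc rose from 1677, 1808 and 1554 counts to 2803, 2750 and 2634 (0.81, edgeR adjusted p = 8.97e-05). Il17re, which encodes the receptor subunit for IL-17C on epithelial cells, fell from 1815, 1870 and 1680 counts to 710, 649 and 700 (−1.27, edgeR adjusted p = 8.75e-06). Il17rb had 2, 3 and 2 counts per WT library and 21, 31 and 29 per KO library (3.57, edgeR adjusted p = 1.06e-04). Of the 11 higher genes, Il17rb alone had exceeded the filter on low counts in KO libraries only, so it had to come out as higher. The ligand gene Il17c had at most 8 counts in any library and was not tested.

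The IL-36 cytokine genes Il36a and Il36b, listed in the table under their older symbols Il1f6 and Il1f8, were far higher in KO. Il36a had 10, 72 and 32 counts per WT library and 1390, 1118 and 1233 per KO library (edgeR log2 fold change 5.14, adjusted p = 3.09e-05, and 6.00 without WT replicate 2). Il36b had 54, 111 and 113 counts per WT library and 1087, 876 and 982 per KO library (3.51, edgeR adjusted p = 1.21e-05). Vdr, the vitamin D receptor gene, rose from 494, 548 and 489 counts to 1377, 1180 and 1278 (1.43, edgeR adjusted p = 1.02e-05). Nfkbiz encodes IκBζ, a cofactor known to be needed for induction of Lcn2 and Defb4 by IL-17. It had 3431, 4568 and 3352 counts per WT library and 2533, 2670 and 2763 per KO library (−0.40, edgeR adjusted p = 0.0238), with no overlap. That call was lost without WT replicate 2 (−0.24, edgeR adjusted p = 0.0724), without KO replicate 1 (−0.37, edgeR adjusted p = 0.0613) and without KO replicate 2 (−0.41, edgeR adjusted p = 0.053). The remaining genes that fell were Il10rb, Stat3, Tlr2, Tlr3 and Tlr5, named after their values were seen, with log2 fold changes between −1.22 and −0.33. Those that rose and are not given above were Il36g, Il22ra1, Cebpb, Il1rl2, Cebpd and Myd88, likewise named after their values were seen. Their edgeR log2 fold changes lay between 0.64 and 2.58.

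Kallikreins, proteases that cut antimicrobial precursors, rose together with an inhibitor of some of them. Of 11 listed proteases and inhibitors 10 had a row, 7 were tested and 6 were higher, against 31.8% of all genes tested. Of the 6, 3 had passed the filter through KO libraries only and so had to come out higher. KLK5 and KLK7 are kallikreins that process cathelicidin in skin. Klk5 had 0 counts in every WT library and 60, 23 and 70 in KO, at least 55.0-fold higher when 3 counts are allowed for the whole WT group. Klk7 had 1, 1 and 2 counts per WT library and 1605, 804 and 1688 per KO library (edgeR log2 fold change 9.98, adjusted p = 1.89e-06). Klk14, Klk6 and Klk8 rose by 10.20, 7.32 and 7.14 on the log2 scale, Klk6 by 7.94 without WT replicate 3. Spink5, which encodes an inhibitor of some kallikreins, rose as well, from 1732, 5287 and 4066 counts to 22631, 20574 and 24289 (2.71, edgeR adjusted p = 2.87e-04). Furin was the tested gene that did not pass (0.30, edgeR adjusted p = 0.163). The neutrophil proteases Elane and Prtn3 had at most 1 count in any library.

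Receptors for the secreted proteins varied widely in level. Ccr6, the chemokine receptor to which several beta-defensins bind, had at most 2 counts in any library. Slc22a17, a receptor for lipocalin 2, had 63, 75 and 74 counts per WT library and 206, 161 and 147 per KO library (edgeR log2 fold change 1.39, adjusted p = 3.37e-04). Of the 8 listed receptors 4 were tested and 2 were higher, beside 31.8% of all genes tested, the other being Cd14 (2.30-fold, edgeR adjusted p = 0.00223), and Lrp1 (−0.10, edgeR adjusted p = 0.638) and Tlr4 (−0.08, edgeR adjusted p = 0.613) did not pass.

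The genes whose pattern over the 6 libraries was most like that of a member were found by Pearson's r of log2(CPM + 1) among genes tested, for members with a mean of at least 10 CPM. With 3 libraries a genotype, any gene that is near 0 in WT and high in KO scores close to 1, so these values are a description. For Defb4 the nearest were Otop2 and Sdr16c6, and 507 genes reached an r of 0.99. For Slpi they were Rnase2b and Otop2, with 490 genes at that level, and for Defb3 they were Lce1d and Klk7, with 393. Lce1d encodes a late cornified envelope protein of the epidermis. Ltf was nearest to Acot8 and Basp1, with 6 genes at 0.99. No gene reached 0.99 for Defb1, whose nearest were Mrps33 (r = 0.989) and Mtmr7 (r = 0.984), or for Pglyrp1, whose nearest were LOC100039029 (r = 0.977) and Tmed3 (r = 0.954).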

How the data were processed

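Bulk RNA-seq of corneal epithelium from 3 WT and 3 KO mice was used, with groups taken from the sample titles and genotype labels. The study's methods describe depletion of ribosomal RNA and BGI sequencing of single-end reads of 50 bases, while an Illumina kit stands in the labels. The submitters' processing notes name Bowtie2 2.2.5, RSEM 1.2.12 and mm9, but the chromosome accessions in the table are those of GRCm38, which is used here. The authors deposited, per gene and library, the expected counts (estimated by RSEM, which divides shared reads among genes), FPKM and TPM. Each of the 18 columns of single libraries could be assigned to a sample. FPKM served only to derive effective gene length with the counts. The authors' group means, DESeq2 fold changes, p-values and q-values were not used. Strand of counting is not stated in the sources used here.

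Expected counts were rounded and tested in edgeR 4.0.16 (R 4.3.3; TMM, filterByExpr with a CPM minimum of 0.482, quasi-likelihood F test, with genotype alone in the model), and p-values were adjusted by Benjamini-Hochberg over 13305 genes. Standard errors are the absolute log2 fold change over the square root of F. CPM values are TMM-scaled. Where WT held 1 to 3 counts in all, a ratio of summed counts, scaled by effective library size, replaced the lower bound first planned. It carries an exact 95% Clopper-Pearson interval. Where WT held 0, the bound is against 3 counts over the group. PCR copies were not told apart, so intervals cover counting error only.

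The members and gene lists were chosen with earlier results of these data known. All members were named, and from each list at most 6 tested genes of lowest adjusted p, genes whose role bears directly on a member, and the 2 genes most like each member of at least 10 CPM. Exceptions are stated where they occur, and S100a8, S100a9, Wfdc2, Wfdc18, Ang, Furin, Bpi, Reg3g, Pglyrp2 and Il17c were likewise named after their values were seen. Mpo, Ctsg, Bpifa1 and Reg3b had no row and, like Camp, were not analysed here. The alternatives tried were DESeq2 1.42.0, total counts only, RLE factors, TMM leaving out the top 20 genes by mean count, a mean count of at least 50, no filter, limma 3.58.1 on log2(TPM + 1) and log2(TPM + 0.1), a gene length offset, a replicate block and leaving out each library. Tests were tried on simulated data. Coding sequences and shared 50-base windows came from GENCODE M21, promoters from RefSeq. Python 3.11.15, pandas 2.3.3, numpy 2.4.6, scipy 1.17.1 and matplotlib 3.10.9 were used.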

Additional observations from a re-analysis of the deposited data

How the results depend on the processing

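Of 714 recomputed values of genes named by the rule, 665 kept their direction and side of the threshold. That rule favoured genes of low adjusted p, so part of this agreement followed from the choice of genes. Between 5 and 8 of the 9 measured genes were called higher, 5 when a mean count of at least 50 left Defb6 untested and 8 by DESeq2, which added Defb1 and Lcn2. The beta-defensins that exceeded the filter on low counts in KO libraries only had to come out as higher in every fit that used it. The number called lower was 0 except under the gene length offset, where it was 2. Leaving out each library gave 6 to 7 members higher, 0 lower, 7282 to 8145 genes called and 1832 to 2425 at the study threshold. The share of calls that were higher, 51.3% by TMM, was 30.3% by limma on TPM (median log2 fold change −0.28 with a pseudocount of 1 and −0.33 with 0.1) and 32.4% under the length offset (median −0.27), and DESeq2 put the median at 0.11. Of the inducing genes 11 were higher and 8 lower by limma and under the length offset, and 11 were higher and 5 to 7 lower with a library left out. Of the receptors 4 were higher and 0 lower by DESeq2, and 2 higher and 2 lower by limma. Replicate numbers did not pair the samples, since deviations of same-numbered libraries correlated at 0.03, −0.01 and 0.06. With the replicate block 7 members were called higher, the addition being Defb1 (0.44, edgeR adjusted p = 0.038), and 4149 genes were higher and 3934 lower. Signs turned, with the cause not tested, as follows. Under limma on log2(TPM + 1) and log2(TPM + 0.1) respectively, Pglyrp1 was at −0.21 and −0.21, Il17ra at −0.11 and −0.12, LOC100039029 at −0.25 and −0.29, Mrps33 at −0.12 and −0.12, and Tmed3 at −0.28 and −0.28. Under the length offset, Defb1 was at −0.47, Pglyrp1 at −1.03, Acot8 at −0.19, LOC100039029 at −1.48, Mrps33 at −0.51, Tmed3 at −0.49 and Tlr4 at 0.013. With total counts only, LOC100039029 was at −0.073 and Tmed3 at −0.037, and with no filter LOC100039029 was at −4.8e-05. Leaving out each library in turn, Pglyrp1 ranged from −0.061 to 0.27, LOC100039029 from −0.16 to 0.14, Tmed3 from −0.029 to 0.12, Tlr4 from −0.20 to 0.0070 and Lrp1 from −0.32 to 0.0076, of which the exclusions of WT replicate 1 or KO replicate 3 turned Pglyrp1 and LOC100039029, that of WT replicate 1 Tmed3, that of WT replicate 2 Tlr4 and that of KO replicate 2 Lrp1. Limits are few libraries, bulk tissue whose epithelial markers differ between genotypes, and WT levels of 4 beta-defensins at or near 0 counts, where fitted folds depend on the prior count.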
